A study of Mus musculus with 6 samples.

Results

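Nutrient transporters and brush border enzymes of the mouse ileum are described here as 42 genes, from the sodium-glucose carrier Slc5a1 to the microvillus actin bundler Vil1 (villin). Members were taken from a list of symbols chosen with earlier results of these data known. Their signals came from the probe sets (groups of short array probes for 1 transcript) that the platform annotation maps to those symbols. Of the 42, 33 had a probe set of their own above the low-signal filter, out of 7919 genes so tested. Slc19a3, a thiamine carrier, lay below the filter, with signals of 1.3 to 10.0 in the 6 arrays. For 7 members (Slc6a19, Slc36a1, Slc43a2, Slc16a10, Sis, Mgam and Alpi) no probe set was annotated, and Slc28a2 was mapped only together with another gene. The signals of these 9 are not described further. Expression of the sucrase and maltase hydrolases, intestinal alkaline phosphatase and the main neutral amino acid carrier was therefore not analysed here.

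Ileal RNA was measured on 6 Affymetrix mouse arrays, 2 for each of 3 groups. BDL_GW4064 mice had their common bile duct tied and were given daily gavage of 100 mg/kg GW4064, a compound that activates FXR, the nuclear receptor for bile acids. BDL_Vehicle mice had the same ligation with vehicle, and Sham_Vehicle mice had the incision and the duct freed without ligation, also with vehicle. Dosing began 2 days ahead of surgery and ended with collection of the ileum 5 days after it. All mice were wild type males of mixed C57BL/6:129Sv background, 8 to 10 months old. Sham mice with GW4064 were not analysed here, so every GW4064 value is within ligated mice. Whether the arrays of 1 group hold RNA of different animals is not stated in the labels. P-values therefore measure the spread between these arrays, which may be technical.

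Enterocytes absorb food across a brush border of packed microvilli, where hydrolases anchored in the membrane cut sugars and peptides and solute carriers take up the products. Sodium or proton gradients drive many of the apical carriers, and a separate set in the basolateral membrane passes the nutrients to blood. In the ileum the same surface also takes up bile acids and vitamin B12, and bile acids that enter the cell bind FXR, which switches on genes such as Fgf15.

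Cubn and Lct had the most separated signals after ligation, so the 250 bases before their annotated transcription starts are given (RefSeq, assembly GRCm38.p6, both genes on the minus strand, written 5′ to 3′ on the gene's strand). Capitals mark matches, on either strand, to 5 short motifs. These were TTTAT (CDX), GATAA (GATA factors), AGGTCA (nuclear receptors), the inverted repeat of AGGTCA with 1 base between that FXR binds, and TATAA (TATA box). The Lct window is chr1:128328319-128328568 and the Cubn window is chr2:13491877-13492126.
Lct: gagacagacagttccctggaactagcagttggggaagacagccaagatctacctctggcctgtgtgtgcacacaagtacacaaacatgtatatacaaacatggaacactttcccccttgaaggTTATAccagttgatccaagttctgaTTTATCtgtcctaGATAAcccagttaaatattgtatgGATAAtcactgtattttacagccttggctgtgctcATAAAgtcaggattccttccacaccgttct
Cubn: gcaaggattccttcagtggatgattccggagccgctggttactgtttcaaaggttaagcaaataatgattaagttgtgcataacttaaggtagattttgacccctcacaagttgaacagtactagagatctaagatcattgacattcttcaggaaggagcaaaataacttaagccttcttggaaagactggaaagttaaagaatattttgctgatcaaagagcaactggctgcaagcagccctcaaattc
In the Lct window TTTAT lay at −102 to −98 and, on the opposite strand, at −30 to −26, counted back from the start. GATAA lay at −89 to −85 and −65 to −61, and on the opposite strand at −101 to −97, where it overlaps the upstream CDX match. The TATA motif was matched on the opposite strand at −127 to −123. None of the 5 motifs was matched in the Cubn window, which says only that these letters are absent there.

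Windows were at hand for 35 of the 42 members, 45 windows in all, and were set beside 32851 mouse windows of the same length. The 35 include members without a tested signal, such as Sis, Mgam and Alpi. TTTAT was found in 35.6% of the member windows, against 37.3% of all windows. GATAA was found in 28.9% of member windows, against 22.6% of all. AGGTCA was found in 15.6% of member windows, against 14.0% of all. The FXR repeat was in 0 of the 45 member windows and in 2 of the 32851. These matches are a description of letters, not of bound sites.

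No member passed an adjusted p of 0.05 in any of the 3 comparisons (limma on log2(signal + 4), Benjamini-Hochberg over 13575 probe sets). Over all probe sets the same rule called 0.0295% for BDL_Vehicle against Sham_Vehicle, 0.0516% for BDL_GW4064 against BDL_Vehicle and 0.0368% for BDL_GW4064 against Sham_Vehicle. Those shares are 4, 7 and 5 probe sets, so a member would seldom be among them. Members are therefore described by their signals in every array, by intervals and by counts at an unadjusted p under 0.05, none of which is a call. Counts of members use only the brightest probe set of each. The signals are bulk values, in which fewer cells of a type and less RNA per cell cannot be told apart. Folds are on the log2(signal + 4) scale, which understates differences of dim genes.

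With BDL_Vehicle against Sham_Vehicle, 15 members had higher and 18 lower mean log2 signals. Their median log2 difference was −0.01, and that of all 7919 genes was −0.01. An unadjusted p under 0.05 was reached by 5 members with lower signal and by 0 with higher signal. Over all genes tested the share was 3.06% lower and 2.95% higher. In 9 members both BDL_Vehicle arrays lay below both Sham_Vehicle arrays and in 2 both lay above, against 19.7% below and 18.1% above of all genes tested. The 5 were Cubn, Lct, Mep1a, Ace and Slc6a20a, with adjusted p-values of 0.475 to 0.751.

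With BDL_GW4064 against BDL_Vehicle, 15 members had higher and 18 lower mean log2 signals, with a median difference of −0.04 and of 0.00 over all genes. An unadjusted p under 0.05 was reached by 3 members with lower signal, Mme, Slc15a1 and Slc1a5, and by 0 with higher signal. Over all genes the share was 2.41% lower and 5.06% higher. The arrays did not overlap in 9 members with lower and 2 with higher signal, against 16.7% lower and 19.1% higher of all genes. Leaving out BDL_Vehicle replicate 2 gave 6 members in place of 3, and leaving out BDL_Vehicle replicate 1 or either BDL_GW4064 array gave 2.

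Between BDL_GW4064 and Sham_Vehicle, 11 members had higher and 22 lower mean log2 signals. The median difference was −0.09 for the members and 0.01 over all genes. An unadjusted p under 0.05 was reached by 6 members with lower signal (Slc15a1, Slc1a5, Cubn, Slc34a2, Lct and Mme) and by 1, Slc5a6, with higher signal. Over all genes the share was 7.08% lower and 7.15% higher. BDL_GW4064 arrays lay below both Sham_Vehicle arrays in 16 of the 33 members and above both in 2, against 24.0% below and 25.0% above of all genes. All 3 comparisons share arrays, so their counts are not independent of each other.

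**Figure D1:**
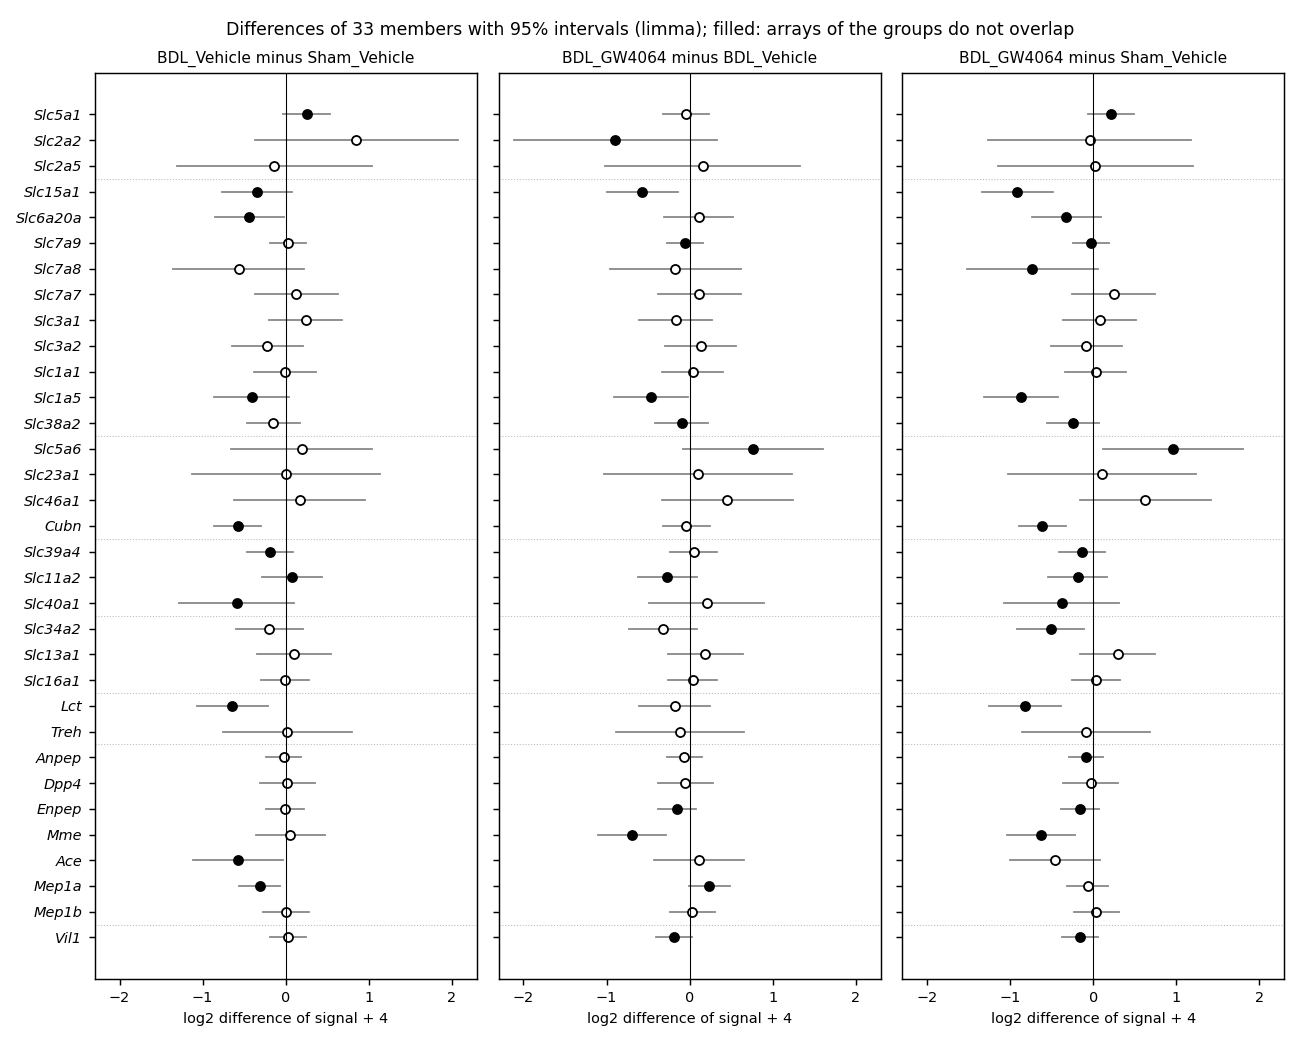
Log2 differences with 95% intervals (horizontal axis, log2 scale) of the 33 tested members, grouped by role, for the 3 comparisons, with filled points where the arrays of the groups do not overlap. Most intervals cross 0. Cubn and Lct are lower in ligated than in sham ileum, Slc15a1, Slc1a5 and Mme are lower with GW4064, and 0 members passed the adjusted threshold. Each member is shown by its brightest probe set. On the other Mme probe set BDL_GW4064 overlapped both other groups.

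Among the 3 sugar carriers, Slc5a1 (SGLT1) takes up glucose and galactose with sodium at the brush border. Its signals were 3436.6 and 3659.1 in BDL_GW4064, 3387.7 and 3940.2 in BDL_Vehicle, and 2832.1 and 3308.6 in Sham_Vehicle. Both ligated groups lay above both sham arrays and overlapped each other. The log2 difference of BDL_Vehicle from Sham_Vehicle was 0.25 (SE 0.12, 95% interval −0.03 to 0.54, adjusted p = 0.751), or 0.14 leaving out Sham_Vehicle replicate 1. Leaving out BDL_Vehicle replicate 2, or fitting the array set described below as a term, gave 0.15. The other probe set of Slc5a1 did not show this, with a log2 difference of −0.03 (SE 0.28) in the same comparison.

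Slc2a2 (GLUT2), which passes hexoses across the basolateral membrane, read 236.3 and 294.1 in BDL_GW4064 ileum, 392.3 and 620.1 in BDL_Vehicle ileum, and 140.7 and 522.8 in Sham_Vehicle ileum. Both BDL_GW4064 arrays were below both BDL_Vehicle arrays, while the sham arrays spanned nearly the whole range. Its log2 difference for BDL_GW4064 against BDL_Vehicle was −0.89 (SE 0.53, 95% interval −2.12 to 0.33, adjusted p = 0.795), and −0.57 without BDL_Vehicle replicate 2. Slc2a5 (GLUT5), the apical fructose carrier, ranged from 203.3 to 578.1, and its BDL_Vehicle and Sham_Vehicle arrays overlapped widely. Its 95% intervals were over 2 log2 units wide in all 3 comparisons.

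Of the 10 tested peptide and amino acid carriers, Slc15a1 and Slc1a5 stood lowest in the BDL_GW4064 arrays. Slc15a1 (PEPT1) takes up di- and tripeptides with protons. It read 376.6 and 274.1 in BDL_GW4064, 521.9 and 438.8 in BDL_Vehicle, and 590.4 and 628.9 in Sham_Vehicle. The 3 groups did not overlap, with BDL_GW4064 lowest and sham highest. BDL_GW4064 was 1.48-fold lower than BDL_Vehicle (log2 −0.57, SE 0.18, adjusted p = 0.486) and 1.89-fold lower than Sham_Vehicle (log2 −0.91, SE 0.18, 95% interval −1.34 to −0.49, adjusted p = 0.176).

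Slc1a5 (ASCT2), a sodium-dependent carrier of glutamine and other neutral amino acids, was dimmer, at 67.3 and 85.9 in BDL_GW4064, 109.4 and 103.8 in BDL_Vehicle, and 150.0 and 135.8 in Sham_Vehicle. Again no groups overlapped and the order was the same as for Slc15a1. The log2 difference was −0.47 (SE 0.19, adjusted p = 0.641) for BDL_GW4064 against BDL_Vehicle and −0.87 (SE 0.19, 95% interval −1.32 to −0.42, adjusted p = 0.176) against Sham_Vehicle. It was −0.41 (SE 0.19, adjusted p = 0.751) for BDL_Vehicle against Sham_Vehicle.

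Slc6a20a, an apical carrier of proline and other imino acids, read 1648.8 and 1370.1 in BDL_GW4064, 1200.7 and 1615.5 in BDL_Vehicle, and 1701.5 and 2091.7 in Sham_Vehicle. Both sham arrays were above all 4 ligated arrays. BDL_Vehicle was 1.35-fold lower than Sham_Vehicle (log2 −0.44, SE 0.18, 95% interval −0.86 to −0.02, adjusted p = 0.751). That value was −0.22 without BDL_Vehicle replicate 1 and −0.29 without Sham_Vehicle replicate 2. The other 7 carriers of this role had no unadjusted p under 0.05 in any comparison. Slc7a9, the light chain of the cystine and dibasic amino acid exchanger, was the steadiest, with 2951.4 to 3156.5 over all 6 arrays. Slc3a1, its heavy chain, ranged from 1356.5 to 2097.3.

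Slc7a7 and Slc3a2, the light and heavy chains of the basolateral dibasic amino acid exchanger, ranged from 979.2 to 1523.3 and from 1455.6 to 2241.2. Slc7a8, a basolateral neutral amino acid exchanger, read 488.3 in Sham_Vehicle replicate 2 and 182.7 to 283.7 in the other 5 arrays. The glutamate carrier Slc1a1 gave closely alike differences on its 3 probe sets, −0.01 to 0.04 for BDL_Vehicle against Sham_Vehicle. Slc38a2, a carrier of small neutral amino acids, lay between 544.9 and 717.8, with BDL_GW4064 arrays below all others.

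**Figure D2:**
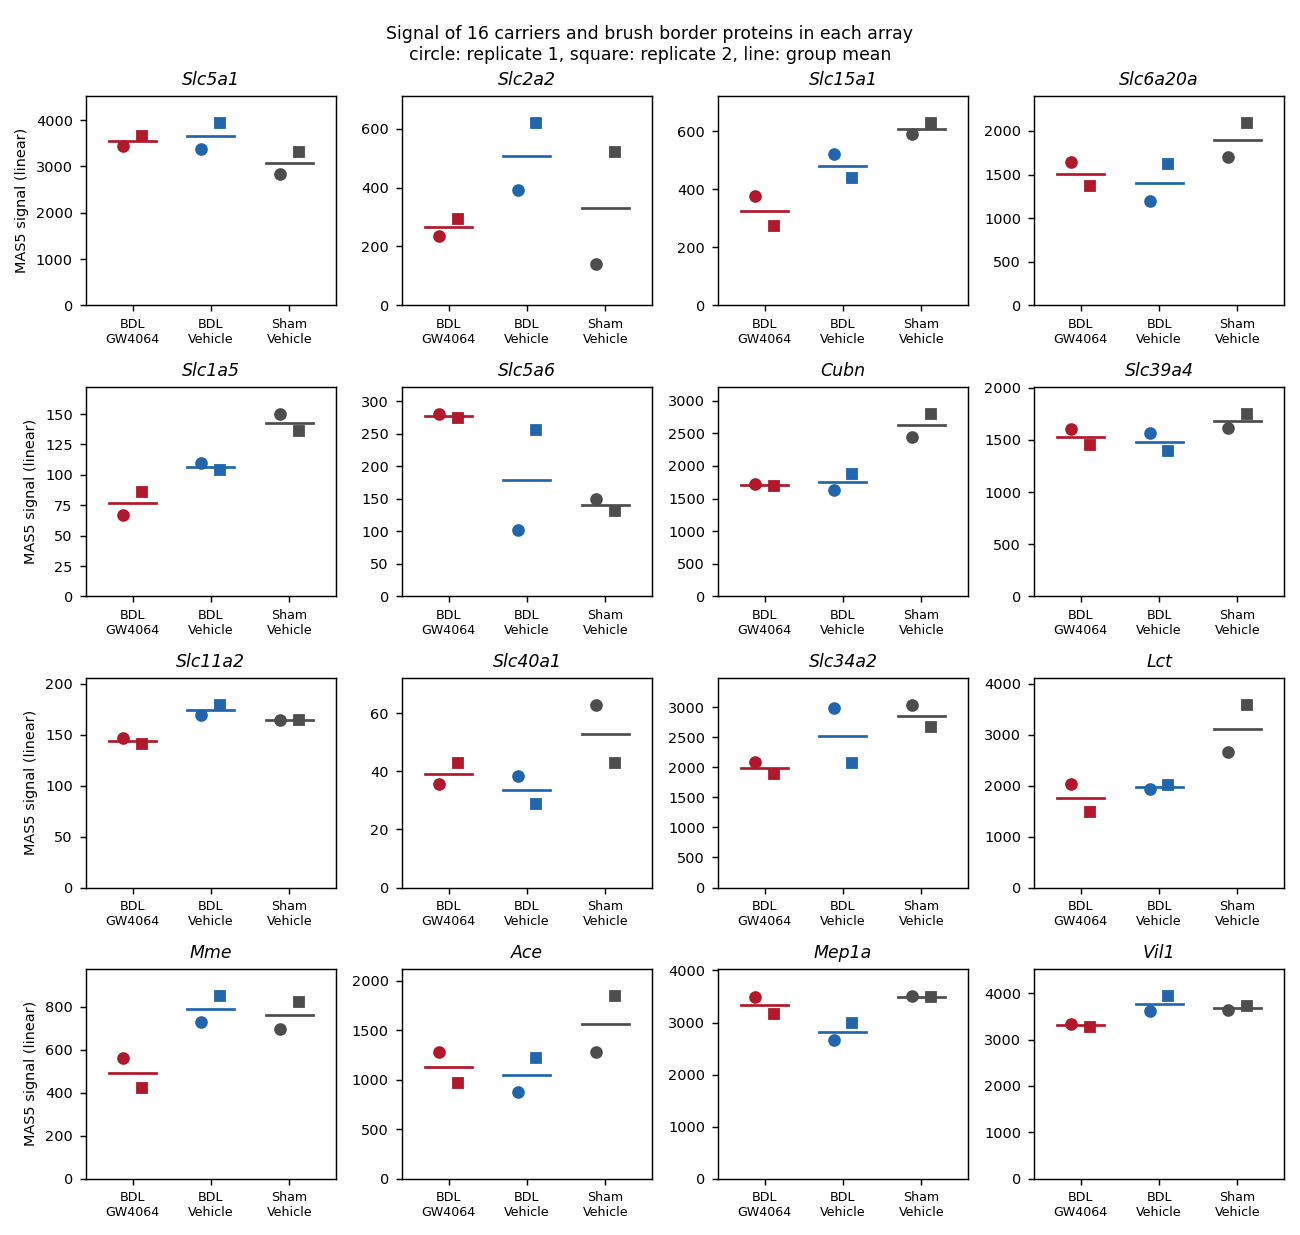
Signal in each array (vertical axis, MAS5 signal, each panel from 0) of the 16 members named by the fixed rule, with BDL_GW4064 left, BDL_Vehicle in the middle and Sham_Vehicle right. Circles are replicate 1, squares replicate 2 and lines the mean of the 2 arrays. Slc15a1 and Slc1a5 step up across the 3 groups without overlap, Cubn and Lct are low in both ligated groups, and Mme is low in BDL_GW4064. Panels show the brightest probe set of each member, and the other Mme probe set did not separate BDL_GW4064.

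Cubn, the vitamin carrier with the firmest separation, encodes cubilin, the ileal receptor for vitamin B12 bound to intrinsic factor. Its signals were 1719.7 and 1689.6 in BDL_GW4064, 1629.3 and 1877.2 in BDL_Vehicle, and 2448.6 and 2794.4 in Sham_Vehicle. All 4 ligated arrays were below both sham arrays, and the ligated groups overlapped. BDL_Vehicle was 1.49-fold lower than Sham_Vehicle (log2 −0.58, SE 0.12, 95% interval −0.86 to −0.30, unadjusted p = 0.00151, adjusted p = 0.475). BDL_GW4064 differed from BDL_Vehicle by a log2 value of −0.04 (SE 0.12, 95% interval −0.32 to 0.24).

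The other Cubn probe set showed the same separation. It read 1454.8 and 1358.6 in BDL_GW4064, 1248.7 and 1435.0 in BDL_Vehicle, and 1863.9 and 2288.9 in Sham_Vehicle. Its log2 difference for BDL_Vehicle against Sham_Vehicle was −0.62 (SE 0.14, adjusted p = 0.524). Both probe sets were hybridised with the same RNA, so they are not separate samples.

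Slc5a6, the sodium-dependent carrier of biotin and pantothenate, was the only member whose brightest probe set had an unadjusted p under 0.05 in the upward direction. It read 280.3 and 273.6 in BDL_GW4064, 101.5 and 255.2 in BDL_Vehicle, and 149.8 and 131.9 in Sham_Vehicle. Both BDL_GW4064 arrays were above all others, but BDL_Vehicle replicate 2 was close to them. The log2 difference from Sham_Vehicle was 0.96 (SE 0.36, 95% interval 0.11 to 1.80, adjusted p = 0.273), and it was −0.34 (SE 0.28) with the array set as a term. Against BDL_Vehicle it was 0.76 (SE 0.36, adjusted p = 0.722), and 0.12 with that term or without BDL_Vehicle replicate 1. Without BDL_Vehicle replicate 2 it was 1.41.

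The folate carrier Slc46a1 ranged from 65.7 to 177.8 and the vitamin C carrier Slc23a1 from 92.3 to 249.2. On these brightest probe sets the arrays of different groups overlapped in all 3 comparisons. On the other Slc46a1 probe set, BDL_GW4064 (105.6 and 70.1) and BDL_Vehicle (66.5 and 81.9) lay above Sham_Vehicle (54.4 and 61.5). Its log2 difference from Sham_Vehicle was 0.54 (SE 0.26, adjusted p = 0.344) for BDL_GW4064 and 0.33 (SE 0.26, adjusted p = 0.818) for BDL_Vehicle.

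For the metals, Slc39a4 (ZIP4), the apical zinc carrier, read 1603.4 and 1449.8 in BDL_GW4064, 1566.3 and 1389.1 in BDL_Vehicle, and 1616.8 and 1747.5 in Sham_Vehicle. All 4 ligated arrays lay below the sham arrays, by a small margin, and the log2 difference of BDL_Vehicle from Sham_Vehicle was −0.19 (SE 0.12, adjusted p = 0.790), and −0.10 without BDL_Vehicle replicate 2 or with the array set as a term.

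Slc11a2 (DMT1), which takes up ferrous iron with protons, read 147.1 and 140.4 in BDL_GW4064, 168.9 and 178.9 in BDL_Vehicle, and 164.7 and 164.5 in Sham_Vehicle. On this brightest probe set BDL_GW4064 was lowest, without overlap, and its log2 difference from BDL_Vehicle was −0.27 (SE 0.15, adjusted p = 0.795). The probe sets of Slc11a2 disagreed. On another one, BDL_Vehicle arrays (149.6 and 211.7) were above Sham_Vehicle arrays (99.1 and 125.2), with a log2 difference of 0.66 (SE 0.22, 95% interval 0.14 to 1.18, adjusted p = 0.751), against 0.08 (SE 0.15) on the brightest. There BDL_GW4064 (177.6 and 150.4) was also above Sham_Vehicle and overlapped BDL_Vehicle. On the remaining probe set all groups overlapped.

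Slc40a1, ferroportin, which exports iron to blood, was the dimmest member tested. It read 35.5 and 42.9 in BDL_GW4064, 38.5 and 28.7 in BDL_Vehicle, and 62.7 and 43.0 in Sham_Vehicle, close to the filter's bound of 37.1. Its differences rest on signals that the array hardly separates from low-signal probe sets.

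Slc34a2, a sodium-phosphate cotransporter of the apical membrane, read 2086.0 and 1895.8 in BDL_GW4064, 2982.3 and 2063.8 in BDL_Vehicle, and 3033.5 and 2664.7 in Sham_Vehicle. BDL_GW4064 arrays were below both sham arrays, and the BDL_Vehicle arrays spanned nearly the whole range. BDL_GW4064 was 1.43-fold lower than Sham_Vehicle (log2 −0.51, SE 0.17, 95% interval −0.92 to −0.11, adjusted p = 0.240). With the array set as a term that difference was 0.02 (SE 0.20). The sulphate carrier Slc13a1 ranged from 1410.3 to 2185.6, and the monocarboxylate carrier Slc16a1 only from 753.2 to 856.9.

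Lactase, the brush border enzyme that splits milk sugar, is encoded by Lct. Lct signals were 2030.3 and 1493.0 in BDL_GW4064, 1935.1 and 2005.7 in BDL_Vehicle, and 2652.8 and 3581.5 in Sham_Vehicle. All 4 ligated arrays were below both sham arrays, and the ligated groups overlapped each other. BDL_Vehicle was 1.56-fold lower than Sham_Vehicle (log2 −0.64, SE 0.18, 95% interval −1.07 to −0.22, adjusted p = 0.742).

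BDL_GW4064 was 1.77-fold lower than Sham_Vehicle in Lct (log2 −0.82, SE 0.18, adjusted p = 0.176), and differed from BDL_Vehicle by −0.18 (SE 0.18). The log2 difference of BDL_Vehicle from Sham_Vehicle was −0.43 without Sham_Vehicle replicate 2 and −0.86 without Sham_Vehicle replicate 1. Treh, the enzyme that splits trehalose, ranged from 744.1 to 1288.4, with all 3 groups overlapping.

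Of the 7 tested peptidases, 3 had an unadjusted p under 0.05 in at least 1 comparison. Mme (neprilysin), a membrane endopeptidase, read 560.5 and 421.0 in BDL_GW4064, 730.2 and 847.4 in BDL_Vehicle, and 697.1 and 819.9 in Sham_Vehicle. BDL_GW4064 arrays were below all others and the other groups overlapped. BDL_GW4064 was 1.61-fold lower than BDL_Vehicle (log2 −0.69, SE 0.18, 95% interval −1.10 to −0.28, unadjusted p = 0.0049, adjusted p = 0.364).

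On the other Mme probe set BDL_GW4064 overlapped both other groups, and BDL_Vehicle lay above Sham_Vehicle. It read 678.1 and 442.8 in BDL_GW4064, 610.5 and 826.2 in BDL_Vehicle, and 576.3 and 462.3 in Sham_Vehicle. Its log2 difference for BDL_GW4064 was −0.37 (SE 0.24, adjusted p = 0.819) from BDL_Vehicle and 0.09 (SE 0.24) from Sham_Vehicle.

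Ace, the angiotensin-converting enzyme, cuts dipeptides from the ends of peptides at the brush border. It read 1281.5 and 967.0 in BDL_GW4064, 874.3 and 1216.6 in BDL_Vehicle, and 1277.8 and 1841.6 in Sham_Vehicle. BDL_Vehicle lay just below sham, and BDL_GW4064 overlapped both. BDL_Vehicle was 1.49-fold lower than Sham_Vehicle (log2 −0.57, SE 0.23, 95% interval −1.11 to −0.03, adjusted p = 0.751), or −0.31 leaving out Sham_Vehicle replicate 2 and −0.33 leaving out BDL_Vehicle replicate 1. The other Ace probe set had a log2 difference of −0.84 (SE 0.35, adjusted p = 0.751), with overlapping arrays.

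Mep1a, the alpha subunit of the metalloprotease meprin, read 3497.7 and 3170.4 in BDL_GW4064, 2656.2 and 2992.2 in BDL_Vehicle, and 3502.5 and 3495.3 in Sham_Vehicle. BDL_Vehicle was below both other groups, which overlapped. The log2 difference was 0.24 (SE 0.11, adjusted p = 0.677) for BDL_GW4064 against BDL_Vehicle, or 0.15 without BDL_Vehicle replicate 1, and −0.31 (SE 0.11, 95% interval −0.56 to −0.07, adjusted p = 0.751) for BDL_Vehicle against Sham_Vehicle. Mep1b, the beta subunit, differed by 0.03 (SE 0.12) and 0.00 (SE 0.12) in the same comparisons.

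Several abundant surface genes had narrow intervals around 0 for ligation. The aminopeptidases Anpep and Enpep ranged from 4533.3 to 5029.4 and from 3487.1 to 4212.8 over the 6 arrays. For BDL_Vehicle against Sham_Vehicle the 95% intervals were −0.23 to 0.18 for Anpep, −0.24 to 0.22 for Enpep and −0.27 to 0.28 for Mep1b. Dpp4, a dipeptidyl peptidase, had an interval of −0.31 to 0.35 on its brightest probe set. With GW4064, both Enpep arrays (3674.3 and 3487.1) lay below all others. So did those of the other, much dimmer Dpp4 probe set, at 157.4 and 157.5. For Anpep, Mep1b and the brightest Dpp4 probe set BDL_GW4064 overlapped BDL_Vehicle.

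Vil1, which bundles the actin core of the microvillus, read 3333.6 and 3274.1 in BDL_GW4064, 3605.9 and 3931.3 in BDL_Vehicle, and 3645.7 and 3732.5 in Sham_Vehicle. BDL_GW4064 was lowest, without overlap, by a log2 difference of −0.19 from BDL_Vehicle (95% interval −0.41 to 0.03, adjusted p = 0.749). From Sham_Vehicle, BDL_Vehicle differed by 0.03 (95% interval −0.19 to 0.25).

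Over the 33 members, the 95% interval lay wholly within 0.5 log2 units of 0 in 12 for BDL_Vehicle against Sham_Vehicle, which is 36.4%, and 31.0% of all genes did so. For BDL_GW4064 against BDL_Vehicle 13 did so (39.4%, and 32.2% of all genes). These shares describe precision, and an interval that reaches beyond 0.5 does not show a difference.

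**Figure D3:**
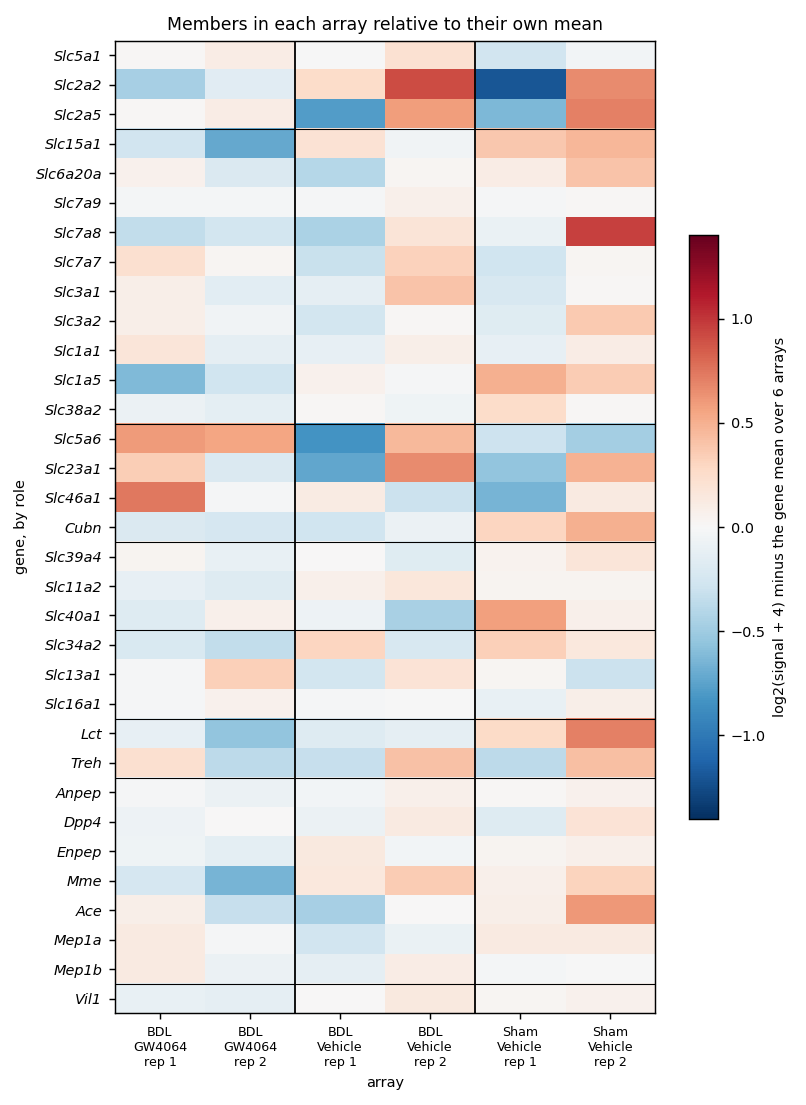
Log2 signal of each tested member in each of the 6 arrays (columns, BDL_GW4064 left, then BDL_Vehicle, then Sham_Vehicle) less the member's mean over the arrays (colour, log2 units), with rows grouped by role. Rows such as Slc2a2, Slc2a5, Slc23a1 and Treh change colour within groups, whereas Slc7a9, Anpep and Vil1 stay pale in every array.

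The members also differed in how well the 2 arrays of a group matched. The pooled within-group SD of log2 signal had a median of 0.21 over the members and 0.17 over all 7919 genes. It was highest in Slc2a2 (0.82), Slc2a5 (0.78) and Slc23a1 (0.75), and 7 of the 33 members were at or above the 95th percentile of all genes. The others of the 7 were Slc5a6, Treh, Slc7a8 and Slc46a1. At the other end were Slc7a9 (0.04), Slc11a2 (0.04), Vil1 (0.05) and Anpep (0.06).

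In Slc2a2, Slc2a5, Slc23a1, Treh and Slc7a8, replicate 2 was above replicate 1 in both BDL_Vehicle and Sham_Vehicle. Slc2a5, for instance, read 203.3 and 530.7 in BDL_Vehicle and 226.0 and 578.1 in Sham_Vehicle. In BDL_GW4064 the order was the opposite for Slc23a1 (198.9 and 134.7) and Treh (1129.1 and 747.1). Sham_Vehicle replicate 2 also had an actin 3′ to 5′ control ratio of 1.73, against 1.09 to 1.22 in the other arrays, a value that increases as RNA or cRNA becomes shorter. The part of RNA quality or tissue sampling in these differences was not tested.

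The arrays also fell into sets by a control that the groups do not explain. The 5′ probe set for 18S ribosomal RNA gave 8.6 to 13.3 for the pair of BDL_GW4064 arrays and for replicate 2 of BDL_Vehicle. It gave 67.3 to 88.7 for replicate 1 of BDL_Vehicle and for the pair of Sham_Vehicle arrays. Only BDL_Vehicle lay in both sets. With this set as a term, which compares BDL_GW4064 with BDL_Vehicle replicate 2 and Sham_Vehicle with BDL_Vehicle replicate 1, the ligation differences were −0.68 for Cubn (SE 0.14) and −0.67 for Lct (SE 0.24). The GW4064 differences were then −0.80 for Mme (SE 0.22), −0.44 for Slc15a1 (SE 0.22) and −0.43 for Slc1a5 (SE 0.25). For BDL_GW4064 against Sham_Vehicle no set holds both groups, and the value with the term is the sum of the other 2.

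Enterocyte markers were present at high signal in every array. The 9 tested (of Fabp2, Apoa1, Mttp and others) summed to 33492.7 and 27369.1 in BDL_GW4064, 25809.4 and 29862.4 in BDL_Vehicle, and 28648.4 and 29013.4 in Sham_Vehicle. The groups overlapped, and the median log2 difference for GW4064 was 0.05. Of the 9, 6 had higher and 3 lower mean log2 signals with GW4064. At the upper end Fabp1, a fatty acid binding protein, read 3514.3 and 2447.5 in BDL_GW4064, 967.1 and 2611.7 in BDL_Vehicle, and 942.6 and 2374.6 in Sham_Vehicle (log2 0.88 with GW4064, SE 0.52, adjusted p = 0.796), with overlapping groups. At the lower end Cdx2, an intestinal transcription factor, read 768.7 and 663.5 in BDL_GW4064, 934.1 and 1067.0 in BDL_Vehicle, and 1069.5 and 833.7 in Sham_Vehicle (log2 −0.48 with GW4064, SE 0.16, adjusted p = 0.523).

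Markers of the gut wall beneath the epithelium were higher with GW4064, beside the lower Slc15a1, Slc1a5 and Mme signals. All 8 fibroblast markers were higher, with sums of 3166.4 and 4158.3 in BDL_GW4064, 1068.1 and 1438.8 in BDL_Vehicle, and 1107.0 and 1740.6 in Sham_Vehicle. All 7 smooth muscle markers had higher means, most strongly through BDL_GW4064 replicate 2. In 4 of the 7 both BDL_GW4064 arrays lay above both BDL_Vehicle arrays, as in 19.1% of all genes, and 3 overlapped. Sums of the 7 were 1919.6 and 12368.1 in BDL_GW4064, 1578.7 and 1962.1 in BDL_Vehicle, and 1914.2 and 2093.3 in Sham_Vehicle. The 4 endothelial markers summed to 345.1 and 361.3 in BDL_GW4064, 202.3 and 204.7 in BDL_Vehicle, and 209.1 and 247.6 in Sham_Vehicle. Of 8 immune markers, 7 were higher with GW4064, with sums of 3078.8 and 2780.6 in BDL_GW4064, 2590.3 and 2146.6 in BDL_Vehicle, and 1973.1 and 2038.6 in Sham_Vehicle. Both tested adipose markers had higher means, with sums of 220.5 and 881.4 in BDL_GW4064, 83.8 and 228.7 in BDL_Vehicle, and 108.0 and 380.8 in Sham_Vehicle. These sums were without overlap between BDL_GW4064 and BDL_Vehicle in the fibroblast, endothelial and immune lists, and overlapped in the smooth muscle and adipose lists. Other lists did not rise together with GW4064. The 4 crypt and cycling and 3 Paneth markers all had lower means (median log2 differences −0.21 and −0.15). Goblet markers were 2 higher and 2 lower, and enteroendocrine markers 2 higher and 3 lower. Among all 7919 genes tested, 3991 had higher means. The marker lists were chosen with earlier results of these data known, so the counts of higher and lower markers are a description and not a test. The part of this tissue makeup in the members' differences was not tested. Without BDL_GW4064 replicate 2, the differences from BDL_Vehicle were −0.34 for Slc15a1, −0.63 for Slc1a5 and −0.49 for Mme. Without BDL_GW4064 replicate 1 they were −0.80 for Slc15a1, −0.30 for Slc1a5 and −0.90 for Mme.

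**Figure D4:**
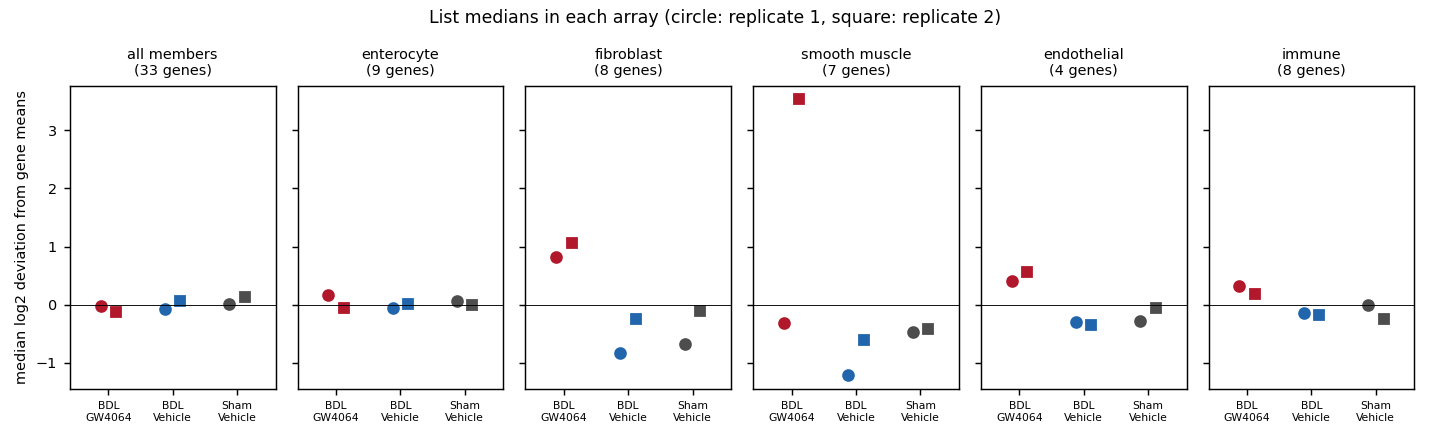
Median log2 deviation of each gene list from its mean over the arrays (vertical axis, log2 units), in each of the 6 arrays, with BDL_GW4064 left, BDL_Vehicle in the middle and Sham_Vehicle right. The median of the 33 members stays between −0.13 and 0.13, though single members vary more. The fibroblast median is at 0.83 and 1.06 in BDL_GW4064 and below 0 in the other arrays.

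A wider set of 100 absorptive and surface genes outside the members was listed by role, of which 68 were tested. Slc26a2, a sulphate carrier, was the only one to pass the adjusted threshold, and it rose with GW4064. Its signals were 2032.0 and 2262.4 in BDL_GW4064, 1022.2 and 948.3 in BDL_Vehicle, and 1245.4 and 1389.3 in Sham_Vehicle (log2 1.12 for BDL_GW4064 against BDL_Vehicle, SE 0.12, adjusted p = 0.0378). BDL_GW4064 was above both other groups without overlap. The call was lost in 12 of 19 alternative settings, including leaving out either BDL_Vehicle array, either Sham_Vehicle array or BDL_GW4064 replicate 2, with log2 values of 1.04 to 1.20 and adjusted p-values of 0.0285 to 0.21. The counts called were 0 of 68 in the other comparisons. Of all 7919 genes tested, 6 were called higher and 1 lower with GW4064, and 0 higher and 3 lower with ligation. Between BDL_GW4064 and Sham_Vehicle 1 was called higher and 1 lower. The 68 genes split into 32 higher and 36 lower with GW4064 (median 0.00), and into 28 higher and 40 lower with ligation (median −0.04). Of all genes 49.6% were lower with GW4064 and 52.1% with ligation.

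Other genes of the wider lists had large but uncalled differences. Trpm6, a magnesium channel, read 172.7 and 228.6 in BDL_GW4064, 86.7 and 82.0 in BDL_Vehicle, and 118.2 and 87.6 in Sham_Vehicle (log2 1.20 against BDL_Vehicle, SE 0.22, adjusted p = 0.208). Slc5a8, a sodium-coupled monocarboxylate carrier, read 472.2 and 435.8 in BDL_GW4064, 936.4 and 655.5 in BDL_Vehicle, and 759.5 and 793.3 in Sham_Vehicle (log2 −0.78 against BDL_Vehicle, SE 0.18, adjusted p = 0.308). BDL_GW4064 was separate from both other groups in these 2 genes, above them in Trpm6 and below them in Slc5a8.

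Heph, the ferroxidase that works with ferroportin, read 1125.8 and 927.6 in BDL_GW4064, 1536.7 and 1278.2 in BDL_Vehicle, and 1565.5 and 1683.7 in Sham_Vehicle (log2 −0.67 against Sham_Vehicle, SE 0.15, adjusted p = 0.176). With the array set as a term that value was −0.40 (SE 0.23). Slc6a6, the taurine carrier, was higher in BDL_GW4064, at 816.6 and 878.9, against 555.9 and 673.8 in BDL_Vehicle (log2 0.47, SE 0.14, adjusted p = 0.449). Slc52a3, a riboflavin carrier, was lower in BDL_Vehicle, at 996.4 and 876.3, against 1215.1 and 1183.6 in Sham_Vehicle (log2 −0.36, SE 0.13, adjusted p = 0.751).

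Among surface hydrolases outside the members, 7 of 8 were lower in BDL_Vehicle than in Sham_Vehicle, with a median log2 difference of −0.27. Over all genes tested 52.1% were lower. None of the 8 passed the adjusted threshold, and arrays of the groups did not overlap in 25% of them, against 37.8% of all genes. The median deviation of the list was −0.20 and 0.04 in the BDL_Vehicle arrays, and 0.07 and 0.10 in the Sham_Vehicle arrays. The lower median thus came mainly from BDL_Vehicle replicate 1. Enpp3, an ectonucleotidase, read 574.5 and 132.2 in BDL_GW4064, 139.0 and 146.5 in BDL_Vehicle, and 418.3 and 421.6 in Sham_Vehicle. The BDL_GW4064 arrays lay on either side of the sham level, and BDL_Vehicle was 2.89-fold lower than sham (log2 −1.53, SE 0.55, adjusted p = 0.751). That SE is shared by all groups and so takes in the wide spread of the BDL_GW4064 pair. In a limma fit of only the 4 arrays compared the SE was 0.15 and the adjusted p was 0.0577, still not a call. Asah2, the neutral ceramidase of the brush border, read 985.5 and 1572.6 in BDL_Vehicle, against 1654.8 and 2289.8 in Sham_Vehicle (log2 −0.64, SE 0.24, adjusted p = 0.751). The Asah2 value was −0.31 without BDL_Vehicle replicate 1, −0.41 without Sham_Vehicle replicate 2, and −0.98 without BDL_Vehicle replicate 2 or with array set fitted. The 15 tested genes of microvillus structure had a median log2 difference of 0.00 with ligation and −0.03 with GW4064, and 12 of them had intervals within 0.5 log2 units of 0 for ligation.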

How the data were processed

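The 6 single-colour arrays (3 groups of 2) were deposited as MAS5 intensity values, per the submitters' processing notes. MAS5 reduces matched and mismatched probe pairs to 1 linear signal per probe set, and every array had a 2% trimmed mean of 200.1. Its settings and any detection calls are not given in the sources used here. Groups came from the labels. The 64 control probe sets and the lowest 40% of probe sets by mean log2 signal were left out, which left 13575. log2(signal + 4) was fitted with limma 3.58.1 (R 4.3.3), with 1 mean per group, a signal trend and Benjamini-Hochberg adjustment. Arrays have no count depth, and 2 per group limit the precision. Of several probe sets for a gene, the brightest by mean log2 signal stood for it.

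Members and lists were chosen with earlier results of these data known. By rule, array values are given for up to 3 members per role with non-overlapping groups, by smallest p, and for up to 2 genes per wider list. Other members given by array values were chosen after their values were seen. Alternatives were pseudocounts, filters, centring, quantile normalization, other variance priors, the replicate block, the array set and leaving out each array. Fits of only the arrays compared were also among them. The script was tested on simulated data. Promoter windows are RefSeq, GRCm38.p6.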

Additional observations from a re-analysis of the deposited data

How the results depend on the processing

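No member passed the adjusted threshold under any of 19 alternatives, and 0 of 906 alternative values of the 16 named members did. Direction held throughout for 32 of their 48 differences. With 2 arrays per group, most member differences lie within what this precision cannot resolve, and signals near 37.1, as for Slc40a1, are limited further. Slc1a5 and Slc40a1 could not be tested when the lowest 60% of probe sets were left out.

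For BDL_Vehicle against Sham_Vehicle, probe sets called numbered 4, and 2 with no filter, 1 with no signal trend and 1 to 6 with an array left out. Members at an unadjusted p under 0.05 numbered 5, and 2 with median centring, 3 with no trend and 4 to 7 with an array left out. For BDL_GW4064 against BDL_Vehicle, probe sets called numbered 7, and 4 with no filter, 2 with no trend, 12 with a robust prior, 2 with array set in the fit and 2 to 48 with an array left out, the 48 without BDL_GW4064 replicate 1. Members at an unadjusted p under 0.05 then numbered 2 to 6. For BDL_GW4064 against Sham_Vehicle, probe sets called numbered 5, and 3 with median centring, 0 with no trend or with the array set, and 0 to 29 with an array left out. The members' median, −0.01 for ligation and −0.09 for BDL_GW4064 against Sham_Vehicle, was −0.12 and −0.28 with the array set. With an array left out it was −0.12 to 0.043 for ligation, −0.13 to 0.065 for GW4064 and −0.19 to −0.066 for both together. The cause was not tested.

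Same-numbered arrays did not deviate together over the tested probe sets as a whole (correlations of −0.12, 0.09 and 0.04). This cannot show whether the numbers pair the samples, which the labels do not state. With the replicate number as a block, probe sets called numbered 2, 4 and 0 in the 3 comparisons, in the order above, and members called 0. A crossed pairing, chosen after seeing the data, gave 4, 7 and 1.

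With array set as a term, signs turned for ligation in Slc5a6 (−0.45), Slc34a2 (0.069), Mme (−0.050) and Vil1 (−0.033). For GW4064 they were Slc6a20a (−0.10) and Ace (−0.13), and Slc39a4 with median centring (−0.015). For BDL_GW4064 against Sham_Vehicle they were Slc5a1 (−0.0058), Slc5a6 (−0.34), Slc39a4 (0.032) and Slc34a2 (0.015). With an array left out, ranges that crossed 0 for ligation were −0.083 to 1.78 for Slc2a2, −0.45 to 0.84 for Slc5a6, −0.46 to 0.069 for Slc34a2, −0.059 to 0.17 for Mme and −0.033 to 0.092 for Vil1. For GW4064 they were −0.15 to 0.066 for Slc5a1, −0.10 to 0.32 for Slc6a20a, −0.14 to 0.065 for Cubn, −0.039 to 0.13 for Slc39a4, −0.40 to 0.043 for Lct and −0.13 to 0.35 for Ace. For BDL_GW4064 against Sham_Vehicle it was −0.98 to 0.89 for Slc2a2.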
